A study of Mus musculus with 3 samples.

Results

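Expression of 8 transcription factor genes that retinal progenitors and Müller glia (MG) share, *Sox2*, *Sox8*, *Sox9*, *Lhx2*, *Pax6*, *Rax*, *Six3* and *Six6*, was followed in single-cell RNA-seq libraries of sorted retinal cells. The genes were taken by symbol from the 32287 features counted in the libraries, and all 8 were counted. All mice carried Glast-CreERT2 with the R26-CAG-LSL-Tdt reporter, in which tamoxifen-activated Cre turns on tdTomato in cells that express the glutamate transporter Glast, which astrocytes share with MG. Per the labels, tamoxifen was given at 75 mg/kg for 5 days from P20, and AAV7m8 vectors driven by the GFAP promoter were injected into the vitreous at P28. The Control library came from retinas that received the GFP-LacZsh vector alone. The CCA (cell cycle activator) library came from retinas that received a vector expressing cyclin D1 and an shRNA against p27, mixed with a smaller amount of the GFP-LacZsh vector. The CCANT library came from retinas with the CCA treatment that were further injected with NMDA, which damages the inner retina, at P35 and with the histone deacetylase inhibitor trichostatin A (TSA) at P37. All retinas were harvested at P51, and 2 to 4 retinas were pooled before tdTomato+ cells were sorted, so that 1 library stood for each group. There was no replicate of any group, and the ratios below compare libraries rather than treatments. Intervals are 95% intervals and cover counting error only.

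MG are the main glial cells of the vertebrate retina, and they arise late from the same progenitors that give rise to the retinal neurons. *Six3*, *Six6*, *Rax*, *Pax6* and *Lhx2* belong to the group of eye field homeobox genes that specify the retina and keep its progenitors dividing, and *Sox2*, *Sox8* and *Sox9* encode HMG-box factors of progenitors and glia. In the adult retina these genes remain active in MG, and some of them are also used by particular classes of neurons. The question addressed here was how their transcripts were distributed over the libraries, over cycling and other MG, and over the other cell classes of the sort.

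The promoters of *Sox2* and *Lhx2* are shown because these genes went in opposite directions in the MG with the most proliferation transcripts (below). Each runs from 250 bases before to 50 bases after the transcript start in RefSeq (GRCm38.p6), on the plus strand. They were searched on both strands for CCAAT, for TTTGAA (a form of the cell cycle gene homology region) and for the E2F-type letters TTTGGCGC and TTTCCCGC, and matches are in capitals. *Sox2* covers chr3:34649745-34650044 and *Lhx2* covers chr2:38339031-38339330. The *Sox2* window ends before the start of the gene model given below (34650405), whereas the *Lhx2* window holds its own (38339281). *Sox9*, the member with the lowest ratio in those MG, had no usable promoter entry.
*Sox2* promoter: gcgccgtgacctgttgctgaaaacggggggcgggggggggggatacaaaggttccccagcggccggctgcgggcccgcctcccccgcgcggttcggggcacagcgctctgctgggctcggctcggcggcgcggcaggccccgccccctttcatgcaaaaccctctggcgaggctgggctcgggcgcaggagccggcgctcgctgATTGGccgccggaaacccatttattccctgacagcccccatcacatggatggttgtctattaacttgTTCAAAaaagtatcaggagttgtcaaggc
*Lhx2* promoter: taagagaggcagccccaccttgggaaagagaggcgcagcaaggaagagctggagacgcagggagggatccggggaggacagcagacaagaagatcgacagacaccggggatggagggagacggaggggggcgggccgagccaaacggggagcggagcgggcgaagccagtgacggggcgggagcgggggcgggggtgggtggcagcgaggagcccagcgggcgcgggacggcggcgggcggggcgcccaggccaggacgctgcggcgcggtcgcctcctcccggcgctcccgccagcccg
The *Sox2* promoter held CCAAT in reverse as ATTGG and TTTGAA in reverse as TTCAAA, 1 match of each. The *Lhx2* promoter held none of the 4 letter strings. Of 32851 promoters of the same length, 37.4% held CCAAT, 17.9% held TTTGAA, 0.514% held TTTGGCGC and 1.07% held TTTCCCGC, so the matches of *Sox2* were common ones. Among other members with negative ratios in those MG, the *Sox8* window and a *Pax6* window also held none of the 4 strings. CCAAT had 3 matches in *Six3*, 2 in *Six6* and 1 in another *Pax6* window. These matches describe letters in a window and not bound sites.

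In GRCm38 (GENCODE vM21 models) the genes lie as follows: *Sox2* at chr3:34650405-34652461 on the plus strand, *Sox8* at chr17:25565892-25570686 on the minus strand, *Sox9* at chr11:112782224-112787760 (plus), *Lhx2* at chr2:38339281-38369733 (plus), *Pax6* at chr2:105668900-105697364 (plus), *Rax* at chr18:65928277-65939787 (minus), *Six3* at chr17:85613608-85629302 (plus) and *Six6* at chr12:72939892-72944899 (plus). *Sox2* lies inside *Sox2ot*, a long noncoding transcript of the same strand, so intronic reads of *Sox2ot* that fall within *Sox2* cannot be told apart from *Sox2* reads. Counted genes of the opposite strand overlap *Sox8*, *Lhx2*, *Pax6*, *Rax*, *Six3* and *Six6*, and *Sox9* overlapped no other annotated gene. Because the counts come from the 3′ end and include introns, levels were compared for a gene between cells and not between genes.

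The libraries held 219051219 to 224515457 UMIs over all barcodes, and the joint counts table of the study kept 3758 Control, 3890 CCA and 3278 CCANT cells with median depths of 20710.5 to 24235.5 UMIs. Cells outside the clusters of rods and of mixed rod and glial transcripts were used as MG, namely 3717 in Control, 3652 in CCA and 2840 in CCANT. The summed level of 9 MG markers such as *Glul* and *Rlbp1* was 16919 to 18633 CPM (UMIs per 1000000 UMIs) in them, and none of the 9 was at 0. The targeted gene *Cdkn1b*, which encodes p27, was at 226.4, 84.61 and 106.6 CPM in the Control, CCA and CCANT libraries. *Ccnd1* was at 212.9, 137.6 and 128.3 CPM, a count over the mouse gene model in which a vector transcript is not distinguished. Other properties moved with the libraries. Rod markers (8 genes, none at 0) summed to 245.6, 424.8 and 550.8 CPM in the Control, CCA and CCANT libraries, and their part in the results below was not tested. The Control cells were male by Y-linked UMIs (3505 cells, with 0 *Xist* cells), the CCA cells female (3859 *Xist* cells, with 0 Y-linked cells) and the CCANT cells of both sexes (1183 and 1718 cells). Libraries shared 52 to 74 barcodes by pair, of which 2 to 8 were kept cells.

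All 8 genes were detected in MG of each library, and none of them differed between libraries by as much as 1.5-fold. Among the HMG-box genes, *Sox9*, which promotes glial fate, was at 380.2 CPM (interval 376.3 to 384.1) in MG of the Control library, with 447.1 (442.5 to 451.8) in CCA MG and 403.7 (398.7 to 408.8) in CCANT MG. It was the member with the largest log2 ratio of CCA over Control, 0.23 (0.21 to 0.26). Its ratio of CCANT over Control was 0.09 (0.06 to 0.11), a direction that most MG clusters did not share (below). *Sox8*, its close relative of the SoxE group, went the other way, with 83.90, 79.28 and 69.05 CPM in the Control, CCA and CCANT libraries. Over Control, its log2 ratio was -0.08 (-0.13 to -0.03) with CCA and -0.28 (-0.34 to -0.23) with CCANT. *Sox2*, a factor of progenitors that adult MG retain, was at 271.5, 278.9 and 252.7 CPM in the Control, CCA and CCANT libraries. The CCANT value of *Sox2* was the lowest, with a log2 ratio of -0.10 (-0.13 to -0.07) over Control and -0.14 (-0.17 to -0.11) over CCA. *Sox2ot*, the overlapping transcript, had 186.0, 199.2 and 213.8 CPM in the same order and so was highest where *Sox2* was lowest.

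Among the homeobox genes, *Lhx2*, a LIM-homeodomain factor required for the differentiation of MG, was at 325.1, 304.9 and 269.5 CPM in the Control, CCA and CCANT libraries. Over Control, the log2 ratio of *Lhx2* was -0.09 (-0.12 to -0.07) with CCA and -0.27 (-0.30 to -0.24) with CCANT, so *Lhx2* and *Sox8* were the members with the lowest ratios in CCANT. *Pax6*, which keeps retinal progenitors multipotent, was at 500.3, 457.3 and 536.7 CPM in the Control, CCA and CCANT libraries. CCA and CCANT thus lay on either side of Control for *Pax6*, and its ratio of CCANT over CCA, 0.23 (0.21 to 0.25), was the highest among the members. *Rax*, an eye field factor that also remains in photoreceptors, was at 328.0, 336.8 and 308.6 CPM. *Six3*, a factor of the eye field and forebrain, was at 352.3, 368.5 and 366.0 CPM, and *Six6*, its relative of the optic vesicle, was at 203.3, 209.6 and 195.4 CPM. For *Rax*, *Six3* and *Six6* the log2 ratios over Control ran from -0.09 to 0.07.

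**Figure D1:**
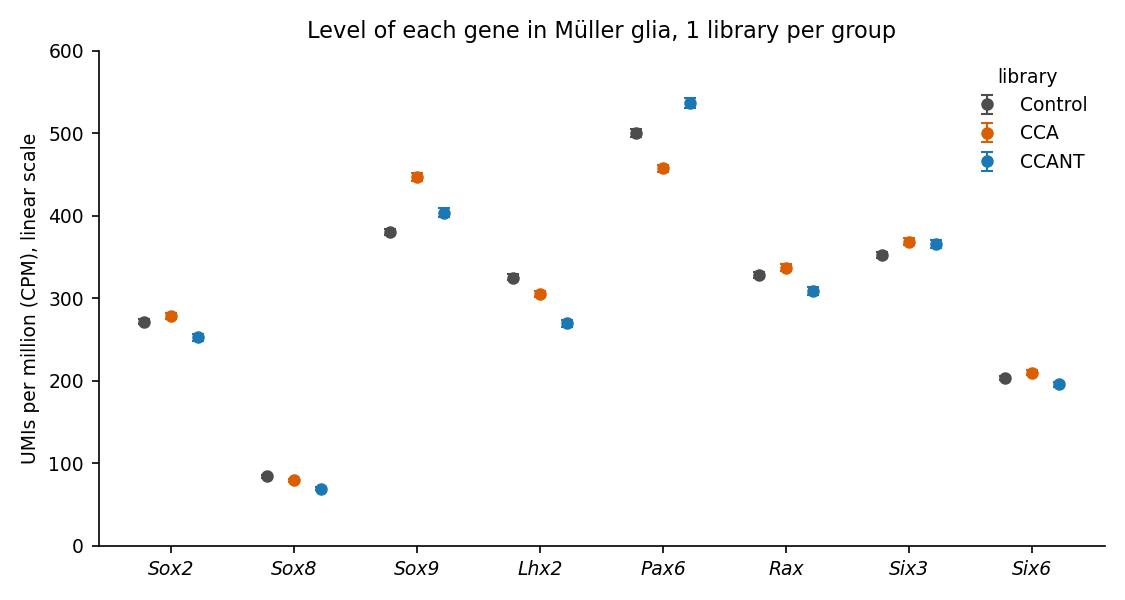
Level of each gene (CPM, linear axis from 0) in MG of the Control, CCA and CCANT libraries, with 1 library per group and bars for the exact 95% Poisson interval. *Sox9* was highest in CCA (447.1 CPM), *Pax6* in CCANT (536.7 CPM), and *Sox8* and *Lhx2* in Control (83.90 and 325.1 CPM).

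The members were set beside every gene that averaged 5 CPM or more and had 50 UMIs. For CCA over Control, 0 of 8 members were at least 1.5-fold higher or lower, and 6.36% of 11726 genes were. For CCANT over Control the count was 0 of 8, beside 7.60% of 11654 genes, and for CCANT over CCA it was 0 of 8, beside 3.45% of 11839 genes. With 8 members and shares of this size, a count of 0 is near the background. The median log2 ratio of the members was 0.04 for CCA over Control, where it was 0.04 over all genes, and -0.07 for CCANT over Control, where it was 0.02. The members of CCANT over Control ran from -0.28 to 0.10, and the lower and upper quartiles of all genes were -0.10 and 0.16. Scaling by median-of-ratios size factors lowered each log2 ratio of CCA over Control by 0.08, and *Sox2*, *Rax*, *Six3* and *Six6*, which were at 0.04 to 0.07, then came to -0.04, -0.04, -0.01 and -0.03, so no direction is given for them in CCA.

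Control and CCA differed in sex, and treatment and sex cannot be told apart in that comparison. CCANT held cells of both sexes and allowed a comparison within a sex. In cells with Y-linked UMIs, the log2 ratio of CCANT over Control was -0.28 for *Lhx2*, -0.17 for *Sox8*, -0.13 for *Sox2* and *Six6*, -0.11 for *Rax*, 0.03 for *Pax6* and *Six3*, and 0.06 for *Sox9*. Over all cells the ratio of *Lhx2* was -0.27, near its value within a sex, whereas the ratios over all cells were over 1.5 times larger in size than within a sex for *Sox8* (-0.28), *Pax6* (0.10) and *Six3* (0.06) and over 1.5 times smaller for *Six6* (-0.06). In cells with *Xist*, CCANT over CCA gave 0.29 for *Pax6* and -0.28 for *Sox8*. Within the CCANT library, Y-linked over *Xist* cells ran from -0.13 for *Pax6* to 0.18 for *Sox8*. A sum over cells does not tell fewer expressing cells from less RNA per cell.

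Most MG held UMIs of most members, although a share of cells with a UMI also falls when each cell holds less RNA of the gene. To compare cells of different depth, each cell was thinned to 8000 UMIs, and 27 shallower cells of Control, 76 of CCA and 40 of CCANT were dropped. At that depth *Pax6* was detected in 97.1% of Control, 94.9% of CCA and 97.3% of CCANT MG, and *Six3* in 92.2%, 93.3% and 92.6%. *Lhx2* was detected in 91.2% (interval 90.2 to 92.1) of Control, 89.1% (88.0 to 90.1) of CCA and 85.9% (84.5 to 87.1) of CCANT MG, and the intervals of Control and CCANT did not overlap. *Sox9* (89.5% in Control and 88.8% in CCANT), *Rax* (87.4% to 88.5%) and *Sox2* (84.7% to 85.5%) differed little between libraries. *Six6* was detected in 77.9% of Control and 75.1% of CCANT MG, and *Sox8*, the member with the fewest UMIs, in 45.2% of Control, 43.7% of CCA and 40.1% of CCANT MG. Without thinning, the share for *Sox8* was 80.5%, 72.4% and 68.2%, and the other members were in 94.2% to 99.9% of MG. Microglia, which are immune cells that should lack these genes, gave a background share: at 8000 UMIs and with 224, 147 and 148 cells, the members were in 4.08% to 33.8% of them. Unthinned microglia had a median depth near that of MG, 20938 UMIs over the libraries, and their shares were higher in CCANT than in Control for each member. Of the microglia, 12.8% were among the cells with a high doublet score, and without thinning 5.75% to 9.68% per library held all 8 members, so free RNA and mixed droplets cannot be told apart in this background.

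The cells differed little in how many members they held. A thinned MG held a median of 7 of the 8 members in each library, with quartiles of 6 and 7, and means of 6.67 in Control, 6.62 in CCA and 6.52 in CCANT. UMIs of all 8 members were found in 20.4% of Control, 20.4% of CCA and 16.0% of CCANT MG. Cells with 3 or fewer members numbered 10 of 3690, 29 of 3576 and 19 of 2800, and a cell with none was found in Control (1 cell) and in neither of the other libraries. Microglia held a mean of 0.929, 1.27 and 1.87 members in the Control, CCA and CCANT libraries.

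MG were not uniform for all members. MG clusters were made without the members or their relatives, and 6 clusters named MG gave 17 pools of cluster and library with at least 50 cells. Over these pools *Sox9* spanned 232.9 to 593.6 CPM, or 2.55-fold, and *Six6* 117.0 to 278.7 CPM, or 2.38-fold. The other members spanned 1.46-fold (*Rax*) to 1.74-fold (*Pax6*), so *Sox9* and *Six6* were the most uneven. The cluster led by *S100a6*, *Cdh13*, *Mt2* and *Nupr1* (75, 202 and 279 cells), among them a metallothionein and stress genes, had the highest *Sox9* in each library, with 510.5, 593.6 and 485.7 CPM in the Control, CCA and CCANT libraries. The same cluster had the lowest *Lhx2* in Control and CCA, with 212.9 and 229.5 CPM beside 240.1 in CCANT, and it had 348.2 to 415.0 CPM of *Pax6*. The cluster led by *Ccn1*, *Fos* and *Junb*, immediate early genes that also respond to tissue dissociation, had the highest *Six6* in each library, with 278.7, 244.1 and 238.5 CPM, and the highest *Six3*, with 400.9, 427.4 and 423.0 CPM. The lowest *Sox9* and *Six6* both came from 92 CCANT cells of the cluster that held most Control MG (2143 cells), at 232.9 and 117.0 CPM, where Control had 355.5 and 194.3. Over all MG *Sox9* was higher in CCANT than in Control, but by cluster it was higher only in cluster 3 (446.1 CPM against 273.0). In clusters 1, 2, 4 and 6 it was lower, with 380.4, 232.9, 387.9 and 485.7 CPM in CCANT. Control had 413.3, 355.5, 419.5 and 510.5 CPM in the same order. The libraries filled the clusters unequally, and the part of this in the ratios between libraries was not tested.

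**Figure D2:**
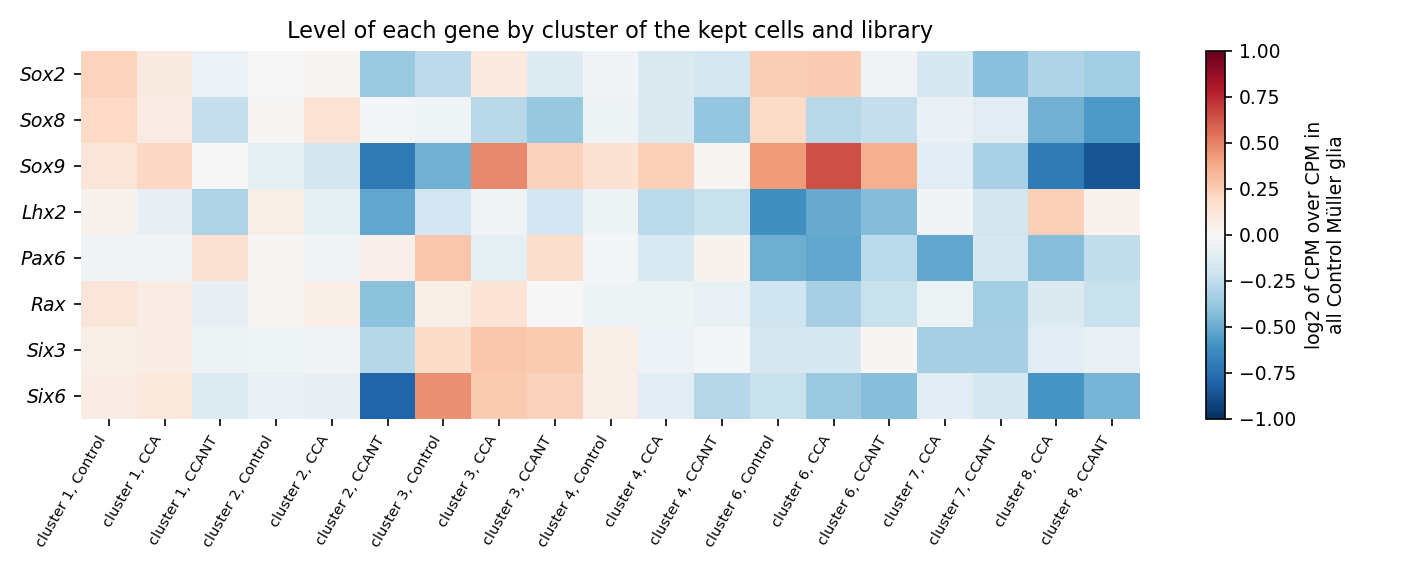
Heat map of each gene (vertical axis) in each cluster and library (horizontal axis) as the log2 of CPM over the CPM of all Control MG, from -1 in blue to 1 in red. *Sox9* was highest in cluster 6 (593.6 CPM in CCA) and was at 209.4 to 232.9 CPM in the mitotic cluster 8, where *Lhx2* was at 333.9 to 383.5 CPM.

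The reactive marker *Gfap* was at 22.72, 73.90 and 94.92 CPM in the Control, CCA and CCANT libraries. MG with a *Gfap* UMI at 8000 UMIs were set against those without one in the same library. *Sox9* was higher in the cells with *Gfap*, with log2 ratios of 0.14 in Control, 0.18 in CCA and 0.15 in CCANT. *Lhx2* was lower, with -0.13, -0.13 and -0.06. *Sox8* had the lowest ratios of the members in Control (-0.14, interval -0.26 to -0.03) and CCA (-0.19, -0.29 to -0.10), with -0.04 (-0.14 to 0.06) in CCANT. *Six6* had 0.13, 0.09 and 0.06 and *Six3* 0.11, 0.04 and 0.07, and the intervals of *Six6* in CCANT and of *Six3* in CCA reached 0. For comparison, *Glul*, the glutamine synthetase of MG, had -0.52, -0.36 and -0.38. None of the 8 members was 1.5-fold apart in any library, beside 6.17% of all genes in Control, 3.73% in CCA and 2.40% in CCANT.

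Cycling MG, taken as cells with a UMI of *Mki67* or *Top2a*, numbered 40 (1.08%) in Control, 716 (19.6%) in CCA and 259 (9.12%) in CCANT. All 8 members were detected in these cells. In CCA, *Sox9* was at 460.8 CPM in other MG and 396.3 in cycling MG, and in CCANT at 409.8 and 351.2, which gave a log2 ratio of -0.22 in each library (-0.26 to -0.18 and -0.29 to -0.16). *Lhx2* was not lower in cycling MG, with 301.0 and 319.3 CPM in CCA and 268.2 and 280.3 in CCANT, or log2 ratios of 0.09 (0.04 to 0.13) and 0.06 (-0.01 to 0.13). *Sox2* was at 287.5 and 247.1 CPM in CCA (-0.22) and at 254.2 and 239.9 in CCANT (-0.08). *Pax6* was at 469.2 and 412.9 CPM in CCA (-0.18) and at 541.7 and 493.4 in CCANT (-0.13). *Sox8*, *Rax*, *Six3* and *Six6* had log2 ratios of -0.17 to -0.07 in CCA and of -0.09 to -0.02 in CCANT. In neither library was any of the 8 members 1.5-fold lower or higher, beside 8.10% of 12001 genes in CCA and 8.46% of 11944 in CCANT. The 40 Control cells gave -0.16 to 0.19, with *Sox9* the highest, but T and NK markers summed to 95.19 CPM in them against 1.894 in all Control MG, and only 2 of them held 3 or more *Mki67* and *Top2a* UMIs. In CCA and CCANT, 0 cycling MG held 2 or more T and NK UMIs.

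The differences were larger in the cells with 3 or more *Mki67* and *Top2a* UMIs, 235 in CCA and 73 in CCANT. *Sox9* was at 276.2 CPM in these CCA cells and at 241.6 in these CCANT cells, against 460.8 and 409.8 in cells without either transcript. Its log2 ratio was -0.74 (-0.81 to -0.67) in CCA and -0.76 (-0.89 to -0.63) in CCANT, which is 0.599-fold and 0.590-fold. *Sox9* was the 1 member of 8 that was at least 1.5-fold lower, beside 12.5% of 12077 genes in CCA and 11.8% of 12020 in CCANT, shares at which 1 of 8 is near the background. With a lower limit, more than 0.32 lower on the log2 scale, the count was 4 of 8 in CCA beside 23.1% of genes (*Sox9*, *Six6*, *Pax6* and *Sox2*) and 3 of 8 in CCANT beside 22.6% (*Sox9*, *Six6* and *Sox2*), and these counts were not tested. *Lhx2* was higher, at 368.9 CPM in CCA and 303.2 in CCANT, with log2 ratios of 0.29 (0.23 to 0.36) and 0.18 (0.06 to 0.29). *Six6* was at 155.1 CPM in CCA (-0.47) and 156.2 in CCANT (-0.33), *Pax6* at 354.4 (-0.40) and 436.1 (-0.31), and *Sox2* at 226.5 (-0.34) and 201.8 (-0.33). *Lhx2* was thus the 1 member with a higher level in these cells in both libraries. Its ratios lay between the median of all genes (0.07 in CCA and 0.08 in CCANT) and their upper quartile (0.48 in each). Of all genes, 33.0% in CCA and 33.3% in CCANT were more than 0.32 higher, and *Lhx2* was not among them. The ratios of *Sox8* were -0.32 (-0.47 to -0.17) and -0.24 (-0.51 to 0.02), the second with an interval that held 0, of *Six3* -0.31 and -0.19, and of *Rax* -0.27 and -0.14. Other glial transcripts in the same cells also differed, with *Glul* at -1.38 and -1.36, *Vim*, an intermediate filament of progenitors and glia, at 0.68 and 0.42, and *Sox2ot* at -0.53 and -0.61. CPM are shares of a cell's UMIs, and these cells were deeper, with medians of 24934 UMIs in CCA and 26169 in CCANT against 20445.5 and 20297 in cells without either transcript.

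Cycling cells were further divided by whether S or G2/M genes held more UMIs, which gave 381 S and 194 G2/M cells in CCA and 154 and 50 in CCANT. In G2/M over non-cycling cells *Sox9* had a log2 ratio of -0.64 in CCA and -0.72 in CCANT, *Lhx2* 0.25 and 0.36, *Six6* -0.48 and -0.24, *Sox8* -0.40 and -0.29, and *Sox2* -0.33 and -0.15. In S cells the members ran from -0.22 to 0.02 in CCA and from -0.16 to 0.05 in CCANT. *Sox9* was also lower in S cells, by less, with -0.16 (-0.20 to -0.11) in CCA and -0.14 (-0.22 to -0.07) in CCANT, while the intervals of *Lhx2* in S cells held 0. The ratios of both genes were larger in the G2/M cells, with G2/M over S ratios of -0.49 and -0.58 for *Sox9* and 0.23 and 0.37 for *Lhx2*. This did not hold for each member. In CCA the other G2/M over S ratios ran from -0.37 for *Six6* to 0.02 for *Six3*, with 0.01 for *Rax*. *Sox9* passed 1.5-fold lower in G2/M over non-cycling cells in both libraries, beside 14.0% of 12080 genes in CCA and 13.0% of 11969 in CCANT. In the same comparison *Lhx2* lay under the upper quartile of all genes, which was 0.49 in CCA and 0.48 in CCANT. In cells of a cluster led by *Top2a*, *Cenpf* and *Mki67* (2 Control, 170 CCA and 42 CCANT cells), *Sox9* was at 232.9 CPM in CCA and 209.4 in CCANT, *Lhx2* at 383.5 and 333.9, and *Glul* at 1035 and 1136. That cluster took no cell type name because its MG markers were raised by a median log2 of 0.74, under the limit of 1.0. Its T and NK markers, 4 of them raised, had 2.42, just under the limit of 2.5 for that name. Those markers summed to 95.19, 0.6592 and 0.3151 CPM in cycling MG of Control, CCA and CCANT. The cells of the cluster, the 2 of Control included, were still counted as MG throughout. MG of named clusters alone numbered 3715 in Control, 3482 in CCA and 2798 in CCANT. In CCANT cells with any *Mki67* or *Top2a* UMI, the ratio of *Sox9* was -0.18 within Y-linked and -0.22 within *Xist* cells. The highest ratio of any member was 0.03 within Y-linked and 0.14 within *Xist* cells.

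**Figure D3:**
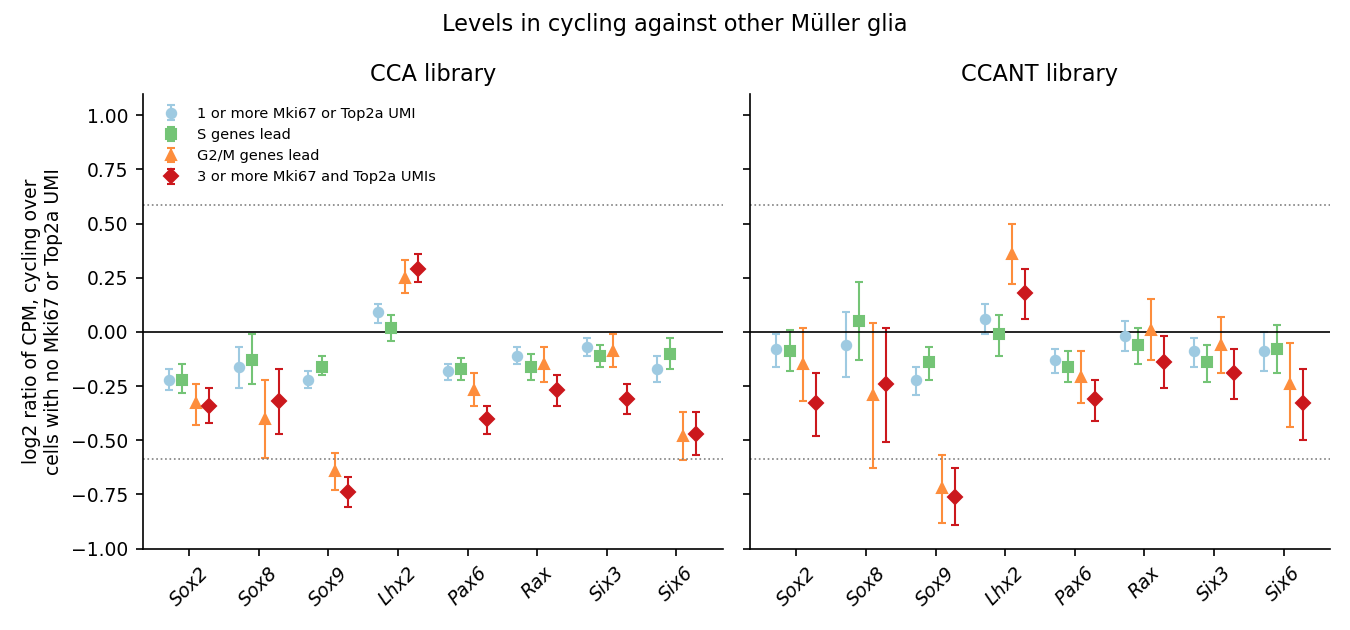
Log2 ratio of CPM (vertical axis) of each gene in cycling MG over MG with no *Mki67* or *Top2a* UMI, in the CCA library on the left and the CCANT library on the right, with exact 95% intervals and dotted lines at 1.5-fold. With 3 or more UMIs, *Sox9* lay at -0.74 and -0.76 and *Lhx2* at 0.29 and 0.18, and S cells lay nearer to 0.

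Other cell classes were present among the cells that passed the filters with no tdTomato UMI needed, and were named by markers with the members left out of the clustering. There were 851 to 1364 rods, 153 to 265 cones, 665 to 1127 bipolar, 738 to 769 amacrine, 52 to 144 ganglion and 28 to 30 horizontal cells per library. MG levels set beside these classes come from the MG clusters of the same cells, 5648 in Control, 4987 in CCA and 5043 in CCANT. They therefore differ somewhat from the MG levels above. Glial transcripts were found in these cells too, and 9 MG markers gave the size of this background: in rods they were at 4.02% to 7.45% of their MG level, in cones at 2.44% to 9.23%, in bipolar cells at 5.72% to 8.27%, in amacrine cells at 9.29% to 23.5%, in ganglion cells at 3.60% to 8.55%, in horizontal cells at 4.90% to 11.1% and in microglia at 13.4% to 31.7%. In microglia no member was above this range. A member whose share of its MG level lay above all 9 markers in all 3 libraries was read as above that background. The 9 markers measure transcripts of MG, and free RNA of neurons is not covered by them.

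*Sox2*, *Sox8*, *Sox9* and *Lhx2* were not above it in any of the 6 neuron classes taken whole. *Sox2* had a mean over libraries of 265.7 CPM in MG and of 6.097 to 29.93 CPM in neurons. *Lhx2* had 302.5 CPM in MG and 7.904 to 34.33 in neurons. Parts of a class could differ from the whole. The bipolar cluster led by *Galntl6* and *Tacr3* (48, 88 and 80 cells), chosen after its values were seen, had *Sox9* at 63.52 (46.33 to 85.00), 76.83 (62.65 to 93.27) and 69.02 (54.65 to 86.02) CPM in the Control, CCA and CCANT libraries, while *Sox2* was at 7.058, 18.83 and 19.22 CPM and *Lhx2* at 9.881, 25.61 and 13.98 in the same cells. A larger bipolar cluster led by *Neto1* and *Nxph1* (92, 171 and 162 cells) had more *Sox9*, at 70.00, 92.66 and 99.58 CPM, together with *Sox2* at 40.76, 56.07 and 53.90, and 13.2% of its cells had a high doublet score. The rule on the glial background was applied to classes and not to these clusters, so neither is read as above that background. Against the median of all clusters, the MG markers had a median log2 of -1.65 in the *Galntl6* cluster and 0.19 in the *Neto1* cluster. In the MG clusters of the same cells that value was 1.44 to 2.84. A small class with the astrocyte markers *Pax2*, *Pdgfra* and *Gfap* (15, 33 and 143 cells) had *Sox2* and *Sox9* at levels near those of MG, and the MG markers were at a median of 24.1% and at most 109% of their MG level in it. Of its cells, 13.1% had a high doublet score. *Sox2*, *Sox9* and *Six3* were above all 9 markers in only 2 libraries. The marker at 109% was *Slc1a3*, which encodes Glast, and astrocytes share Glast with MG. The rule therefore cannot decide whether these members were above the glial background. *Sox2*, *Sox9* and *Six3* were at 125%, 112% and 120% of their MG levels in this class. *Sox2* was at 332.9 CPM in it, above MG in each library, and *Sox9* was at 452.3 (352.0 to 533.2) beside 405.6 (384.3 to 431.7) in MG, ranges that overlapped. *Sox8* was at 28.53 CPM in it and 76.46 in MG, and *Lhx2* at 195.2, so both were lower than in MG beyond the spread of the libraries. Of the amacrine cells, 17 in Control, 19 in CCA and 27 in CCANT held 2 or more UMIs of starburst markers such as *Chat*. *Sox2* was at 26.63 (12.18 to 50.55), 170.1 (140.5 to 204.2) and 142.9 (118.5 to 170.7) CPM in them, and at 27.05, 25.02 and 28.12 CPM in the other amacrine cells. *Sox2* was thus higher in these cells in CCA and CCANT and not in Control, where *Chat* was also lowest, at 112.4 CPM against 298.8 and 227.9. In a finer clustering, an amacrine cluster led by the starburst marker *Slc5a7* held only 4 Control cells, beside 11 in CCA and 13 in CCANT. The part of this makeup in the *Sox2* values was not tested.

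*Rax* was above the glial background in the photoreceptors. Its mean was 324.1 CPM in MG, 182.6 (166.7 to 195.5) in cones and 155.8 (152.0 to 163.1) in rods, 56.3% and 48.1% of the MG level. The ranges of cones and rods did not overlap, and at 8000 UMIs *Rax* was in 66.0%, 70.5% and 64.8% of rods, of which 50, 95 and 105 were deep enough. In bipolar cells *Rax* was at 9.35% of its MG level, which was above all 9 markers in each library by a small margin (1.40 times the marker median). Its mean there, 30.29 CPM, was below the 51.70 CPM of microglia. In amacrine, ganglion and horizontal cells it was within the glial background. *Six6* was at 202.2 CPM in MG, 171.9 (170.2 to 173.7) in cones and 12.79 in rods, so the photoreceptor classes differed. *Six6* was also above the glial background in amacrine (96.76 CPM), ganglion (85.51), horizontal (65.88) and bipolar cells (37.91). In bipolar cells, however, its range (31.77 to 41.62) overlapped that of microglia (25.67 to 41.34). In pericytes, a class outside the neurons, *Six6* was at 65.21 CPM (52.61 to 81.06). That range overlapped those of horizontal (57.70 to 77.06) and amacrine cells (80.08 to 108.1). The 9 MG markers were at 18.4% to 25.6% of their MG level in pericytes.

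*Six3* in horizontal and amacrine cells and *Pax6* in amacrine cells overlapped their MG levels over the libraries, and *Six3* in ganglion cells (378.7 to 451.0 CPM) lay above MG (356.8 to 369.8). *Six3* was at 436.0 CPM (358.3 to 480.7) in the astrocyte class, 405.0 in ganglion, 380.0 in horizontal, 363.8 in MG and 331.9 in amacrine cells, and neighbours in this order overlapped over the libraries. It was lower in bipolar cells (196.4) and cones (81.96), each apart from amacrine cells and above all 9 MG markers in each library. In cones, however, its range (75.47 to 89.52) overlapped that of microglia (51.69 to 82.01). The mean of *Six3* in cones was also below those of pericytes (101.1), T and NK cells (104.8) and endothelial cells (105.3). In rods *Six3* was at 27.30 CPM, above all 9 markers in 1 library. *Pax6* was at 537.0 CPM (495.1 to 575.5) in amacrine cells and 497.1 (451.1 to 535.8) in MG, which overlapped, and at 399.8 in horizontal and 297.0 in ganglion cells, both apart from and below MG. In bipolar cells *Pax6* was at 38.80 CPM and in cones and rods at 20.56 and 34.35, none of them read as above the glial background.

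**Figure D4:**
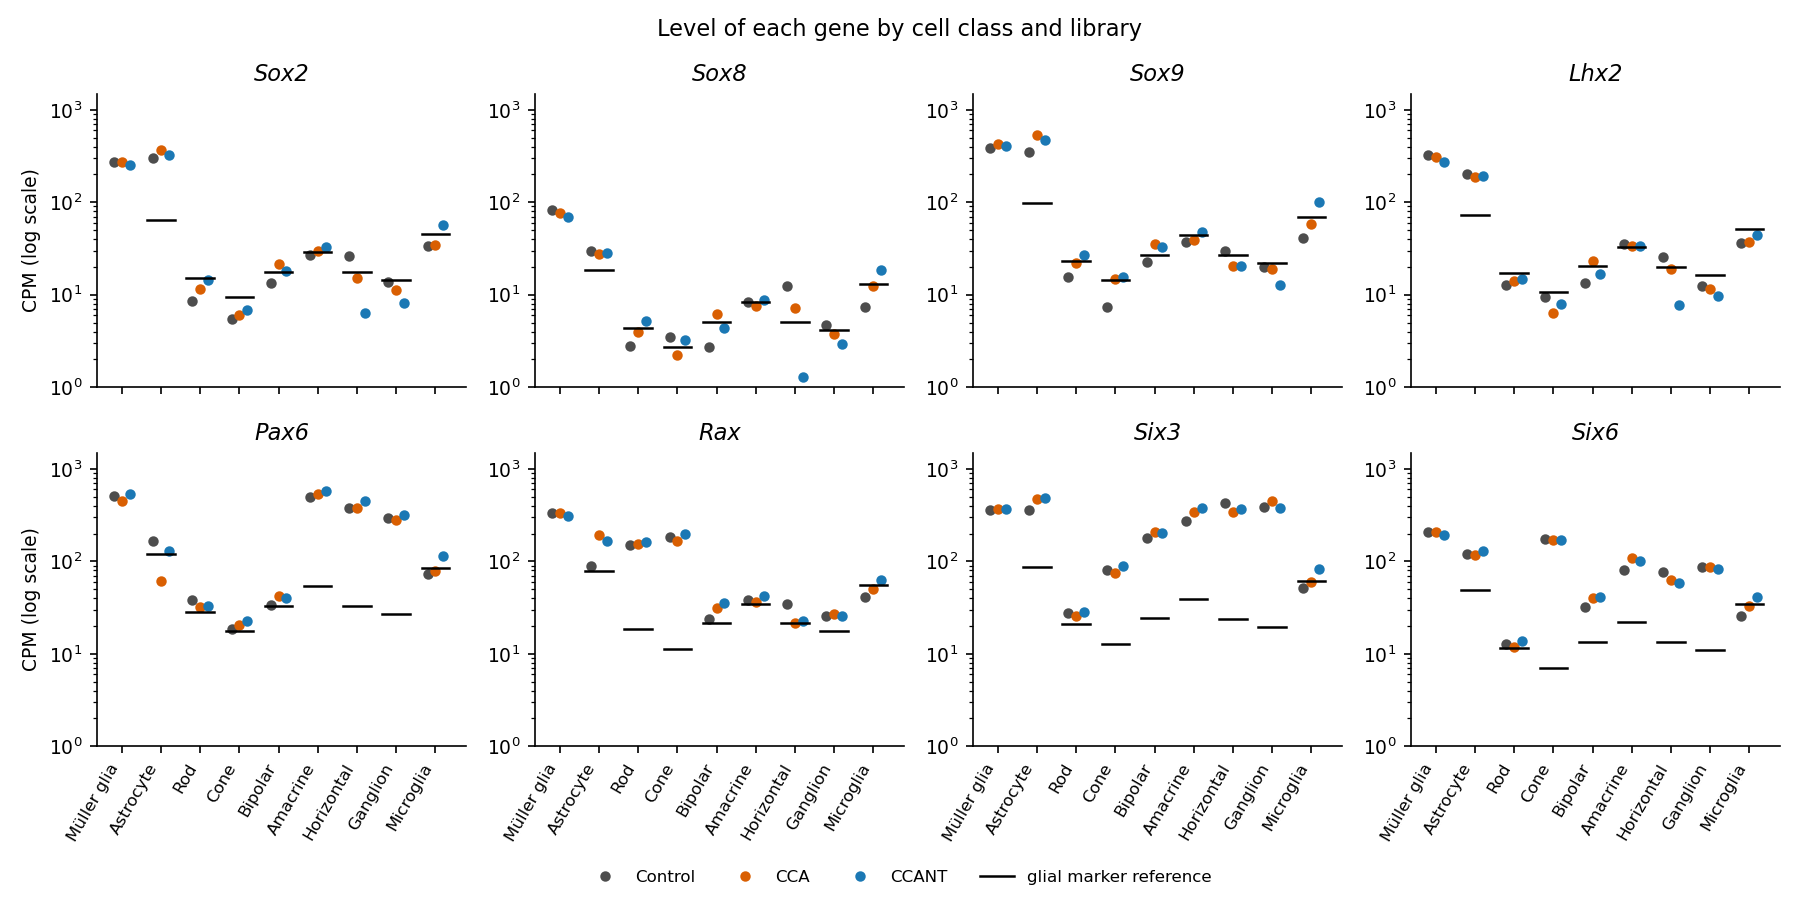
Level of each gene (CPM, log axis) in MG and 8 other cell classes, with a point per library and a black line at the level that the median of 9 MG markers gives for the glial background. *Sox2*, *Sox8*, *Sox9* and *Lhx2* lay near the line in neurons, *Rax* above it in rods and cones (155.8 and 182.6 CPM on average), *Six6* in cones (171.9 CPM), *Pax6* in amacrine, horizontal and ganglion cells, and *Six3* in these and in bipolar cells and cones.

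Within a class of neurons *Six3* was uneven. Among bipolar cells, the cluster led by *Cck*, *Cdh8* and *Tnnt1* had 607.1, 644.0 and 723.6 CPM in the Control, CCA and CCANT libraries, and the cluster led by *Adarb2* and *Gabrr3* had 13.40, 20.30 and 15.22. Among amacrine cells, the cluster led by *Hpgd*, *Glra3* and *Caln1* had 915.4, 1117 and 1010 CPM of *Six3*, and the cluster led by *Olfm3* had 52.05, 36.87 and 48.57. *Pax6* was more even over the amacrine clusters, at 423.9 to 773.0 CPM. Over all amacrine cells, *Six3* had a log2 ratio of 0.34 (0.29 to 0.39) in CCA over Control and of 0.48 (0.42 to 0.53) in CCANT over Control, and *Six6* of 0.43 and 0.35. In the cluster led by *Lamp5* and *Nrg1*, however, *Six3* was at 313.2, 333.4 and 337.3 CPM and *Six6* at 84.24, 85.58 and 81.46, while in the cluster led by *Mgat4c* and *Cartpt* they were at 98.25, 211.1 and 231.1 and at 75.85, 131.8 and 122.6. The makeup of the amacrine cells by cluster differed between libraries, and its part in these ratios was not tested.

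A list of 23 other transcription factors of MG and progenitors was followed in MG. For CCA over Control 17 passed the filter on low counts, and 0 of these were 1.5-fold higher or lower. The highest ratios were those of the Notch effectors *Hes1* (0.31) and *Hes5* (0.16) and of *Meis2* (0.18), and the lowest those of *Id2* (-0.34) and *Nr2e1* (-0.16). For CCANT over Control 18 passed, of which 1 was higher and 1 lower, beside 4.73% and 2.87% of all genes. *Sox11*, a factor of immature neurons and progenitors, was at 3.502, 5.155 and 6.558 CPM in the Control, CCA and CCANT libraries, a log2 ratio of 0.91 (0.69 to 1.12) for CCANT over Control. It was under 5 CPM in Control and passed the filter of that comparison only through CCANT, so the filter had a part in its being counted as higher. *Hes5* was at 238.2, 267.0 and 150.8 CPM, with -0.66 (-0.69 to -0.62) for CCANT over Control and -0.82 (-0.86 to -0.79) for CCANT over CCA. Of 12 relatives of the members, 4 passed, and none of these was 1.5-fold apart, with *Sox5* at -0.33 and -0.22 and *Sox6* at -0.12 and -0.18 for CCA and CCANT over Control.

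In the cells with 3 or more *Mki67* and *Top2a* UMIs, 18 of the 23 factors passed the filter in each library. In CCA 2 were higher and 4 lower, and in CCANT 2 were higher and 5 lower, where 20.4% of all genes in CCA and 20.6% in CCANT were higher and 12.5% and 11.8% were lower. *Sox11* (1.93 in CCA and 1.96 in CCANT) and *Id1* (0.86 and 0.70), an inhibitor of differentiation, were higher, and *Sox11* passed the filter in CCA only through the cycling cells (15.86 CPM against 4.170). *Hes5* (-1.84 and -1.53), *Sox4* (-0.91 and -0.87), *Hes1* (-0.71 and -0.72) and *Id3* (-0.61 and -0.69) were lower in both libraries, and *Hey1* (-1.33) in CCANT, where it was under 5 CPM in the cycling cells (3.396 against 8.552). Of the relatives, *Sox5* was lower in both (-0.92 and -1.10) and *Lhx9* in CCA (-0.59).

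The genes most like each member were found by Pearson's correlation of log2(CPM + 1) over 28 pools of class and library with at least 50 cells, among 12880 genes. These pools share libraries and free RNA, and the values are a description. *Sox2*, *Sox8*, *Sox9* and *Lhx2* resembled each other (0.96 to 0.99) and MG genes. The closest were *Sox9* (0.993), *Greb1* (0.990) and *Lhx2* (0.990) for *Sox2*, *Espn* (0.988), *Glul* (0.986) and *Rlbp1* (0.983) for *Sox8*, *Sox2* (0.993), *Cyp2j9* (0.985) and *S100a16* (0.985) for *Sox9*, and *S100a16* (0.994), *Espn* (0.991) and *Sox2* (0.990) for *Lhx2*. The other members had patterns of their own, with 0.76 for *Pax6* and *Six3*, 0.72 for *Six3* and *Six6*, 0.06 for *Pax6* and *Rax*, and -0.08 for *Rax* and *Six3*. *Pax6* was most like *Hunk* (0.989), *Cnksr2* (0.979) and *Sema6a* (0.974), and *Rax* most like *Ephx2* (0.961), *Slc16a1* (0.957) and *Acad8* (0.950). *Six3* was most like *Igsf9b* (0.959), *Palm* (0.950) and *Adam22* (0.943), and *Six6* most like *Nrcam* (0.958), *Minar2* (0.928) and *Gm13052* (0.911).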

How the data were processed

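The authors deposited, for each library, a matrix of UMI counts (Cell Ranger 6.1.1 per the submitters' processing notes, mm10 with tdTomato and GFP added, introns counted) and a joint table of 10926 kept cells and 26167 genes with their UMI counts, both as whole counts without normalization. The joint table held a median of 93.13% of the library UMIs of Control cells, 99.85% for CCA and 99.87% for CCANT, so levels were computed from the library counts of its cells.

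UMIs were summed over cells and divided by the total (CPM), with exact Poisson intervals for levels, exact conditional binomial intervals for ratios and Clopper-Pearson intervals for shares. With 1 library per group there was no test. Kept cells were clustered with Leiden (leidenalg 0.10.2, scanpy 1.11.5) on 7 principal components at resolution 0.3. Cells for other classes needed 2000 features or more and were dropped above 100000 UMIs or 15% of mitochondrial UMIs, and were clustered on 20 components at resolution 0.5. The members, the listed factors, the transgenes and sex-linked genes were left out of both clusterings. Clusters took names from markers by a rule set after the clusters had been seen. Scrublet called 479 CCA cells and 0 in the other libraries, so it was not used to remove doublets, and removal of the 5% of cells with the highest score was tried. All 8 members were named, with the listed factors of largest ratio and the 3 genes most like each member, and some of the listed factors are not reported here. The members and lists were chosen with earlier results of these data known. Ratios and thinning were tried on simulated Poisson counts drawn from a shared profile. These hold no variation between cells, clusters or libraries, so they cover counting error only.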

Additional observations from a re-analysis of the deposited data

Results flagged for a closer look

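A cluster outside the comparisons was singled out after its values were seen. It was led by *Mecom*, *Fbln1*, *Crhbp* and *Optc* and held 37 Control, 30 CCA and 83 CCANT cells. It took no name from the markers and had signals of several members above the microglial background. Over the 3 libraries it had 700.6 CPM of *Pax6*, 351.1 of *Rax*, 398.3 of *Six3* and 270.8 of *Six6*. By library *Pax6* was at 682.0, 648.3 and 729.8 CPM in it, or 138% of the MG level, while *Sox2* was at 140.1 CPM or less. The MG gene *Glul* was at 1654, 1645 and 1167 CPM in the same cells and the 9 MG markers were at 10.1% to 97.6% of their MG level, with a median of 25.4%. *Pax6*, *Six6* (137%) and *Six3* (113%) were above all 9 markers in each library, and *Rax* (106%) in 2 of them.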

How the results depend on the processing

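The median log2 ratio of the members for CCA over Control (0.04) was 0.07 without cycling cells, -0.00 with no tdTomato UMI needed and -0.04 with median-of-ratios size factors, which shift all ratios of that comparison by -0.08. For CCANT over Control (-0.07) it was -0.11 with size factors and -0.12 in Y-linked cells. With 3 or more cycling UMIs, the median for cycling over other cells moved from -0.17 to -0.33 in CCA and from -0.08 to -0.28 in CCANT, and the count of members at least 1.5-fold lower from 0 to 1 in each. The mean number of members per cell was 7.72, 7.56 and 7.53 without thinning and 5.73, 5.69 and 5.57 at 5000 UMIs for Control, CCA and CCANT. The remaining 118 summary values stayed within their limits, and 238 of 248 alternative ratios of single members kept their sign. Of all values of single members under an alternative, 117 moved outside the interval of the reported value, the shares of cells at another thinning depth among them, and 179 did not. Alternatives on the mitotic cluster, tdTomato UMIs, T and NK UMIs, doublet scores and glial markers were chosen after seeing the data. The Scrublet alternative was not run, since it called no cell in 2 of the libraries. The cause of these shifts was not tested except where the setting itself leaves out cells or UMIs. Depth limits *Sox8* most. No paired analysis was possible because each group had 1 library, and leaving out a replicate was not possible for the same reason.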
